A study of Mus musculus with 34 samples.

Results

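Voltage-gated sodium and calcium channels are the proteins with which neurons fire and with which an impulse is turned into transmitter release. The set described here holds 35 genes of 18193 on the array with 1 annotated symbol. It was chosen by name, as every symbol of the form Scn plus a number plus a or b, or beginning with Cacna, Cacnb or Cacng. The name pattern uses no measured value, but earlier results of these data were known when the set was chosen. It comprises 8 sodium channel alpha subunit genes and 3 sodium channel beta subunit genes, 9 Cacna1 genes, 4 Cacna2d genes, 3 Cacnb genes and 8 Cacng genes. Each gene was read from the probe set with the highest mean over the 34 arrays. In all, 24 members had signal above log2 4 on at least 4 arrays and were tested, and 11 did not and are described separately.

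The arrays measured spinal cord RNA of trkB.T1 null mice (KO) and of wild-type mice (WT). TrkB.T1 is the truncated form of the receptor for brain-derived neurotrophic factor and is encoded by Ntrk2. For each genotype there was cord taken 1, 3 or 7 days after spinal cord injury (SCI), and cord of sham animals, which had surgery that spared the cord. The KO groups held 4 sham arrays, then 4, 5 and 4 arrays at days 1, 3 and 7, and the WT groups held 4 sham arrays, then 5, 4 and 4. No strain, age, sex, injury level or method of injury is given in the labels used here, and neither is the allele beyond the word null. Nothing in the labels ties an array to an animal of its own, so p-values here reflect the scatter among samples, some of which may be technical. Differences are given with their standard error after ±. Adjusted p-values come from limma over the 11993 genes tested, and a gene passed at an adjusted p under 0.05.

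A sodium channel is built from 1 pore-forming alpha subunit with beta subunits that alter its gating and anchor it at axon initial segments and nodes of Ranvier. A calcium channel of the high-voltage class has a Cacna1 pore, an intracellular Cacnb subunit that brings the pore to the membrane, and a Cacna2d subunit on the outside that raises the number of channels at the terminal. The Cacng genes were named for a subunit of the muscle calcium channel, but most of those made in neurons escort AMPA-type glutamate receptors to the synapse.

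Some libraries stood apart and touch the results below. On 2 probe sets of Ntrk2 the 3 injured KO groups averaged 3.90 to 4.18 and 2.83, against 10.20 to 10.65 and 9.09 to 9.74 over the WT groups. On these same probe sets the library labelled KO sham replicate 2 gave 9.46 and 8.59, which goes against its label. The mean of 18 neuron marker genes was 10.46 and 10.64 in KO day 3 replicates 3 and 4 and 11.19 to 11.50 in the other KO day 3 arrays. The caudal Hox mean was also low in those 2 libraries, at 6.54 and 7.00, against 8.07 to 8.17 in the other 3. WT day 3 replicate 2 had an astrocyte marker mean of 11.32, against 12.24 to 12.38 in the rest of its group, and the lowest neuron mean there (11.02). Skeletal muscle genes averaged 13.35 in KO day 3 replicate 3 and 10.99 in replicate 1, against 4.56 to 5.34 in the rest of that group. Values without these 3 day 3 libraries (KO replicates 3 and 4 and WT replicate 2), a choice made after seeing the data, are given for the KO day 3 falls described and for calls that they change.

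After injury the channel genes fell far more often than they rose, and by day 3 most of the tested genes were lower in both genotypes. In KO cord 10 of 24 were lower at day 1, 17 at day 3 and 12 at day 7, against 27.3%, 38.8% and 31% of all genes tested. In WT cord 17 of 24 were lower at day 1, 19 at day 3 and 19 at day 7, against 32.5%, 37.4% and 33.3% of all genes. Rises were few. In KO cord 1, 1 and 0 members were higher at days 1, 3 and 7, where 23.7%, 30.9% and 23.5% of all genes were. In WT cord 1, 0 and 0 members were higher, where 27.1%, 29.5% and 25.8% of all genes were.

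The median log2 difference of the 24 genes from sham was -0.47, -1.04 and -0.57 at days 1, 3 and 7 in KO cord and -0.59, -0.95 and -0.87 in WT cord. Over all genes tested the median lay between -0.06 and -0.05 in each of these 6 comparisons. Of the 24 genes, 4 were lower in every comparison with sham, namely Cacna1b, Cacna2d2, Cacnb4 and Scn2b. For Cacna1b, Cacna2d2 and Cacnb4 the KO day 1 call was lost without KO day 1 replicate 1, and the KO day 1 count was then 5. Without the library labelled KO sham replicate 2 that count was 7, the calls of Cacna1b, Cacna1e and Cacna2d2 being lost. A fall was seen at least once in 20 genes. For falls in all 6 comparisons, or in at least 1, the share of all genes is not given here. The counts of 4 and 20, and the counts below of genes that fell in each subunit family, therefore stand without a background. The shares of all genes lower in the fits that gave 5 and 7 are not given either. Cacng5 and Scn9a had a rise at least once, and Cacna1d, Cacna1h and Scn7a passed in no comparison with sham. Without the 3 day 3 libraries the KO counts of lower genes were 16, 17 and 16 (34%, 37.1% and 36.3% of all genes). Day 1 thus gained 6 genes, and the KO day 3 median was -0.64. The share of all genes lower also rose at days 1 and 7, from 27.3% and 31% with those libraries. All 17 KO day 3 falls still passed, at smaller sizes. Among those with no such value below, Cacna2d3 was then -1.12, Cacnb4 -0.92, Cacng2 -0.92, Cacnb2 -0.72, Cacna1a -0.59 and Cacna2d1 -0.58.

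**Figure D1:**
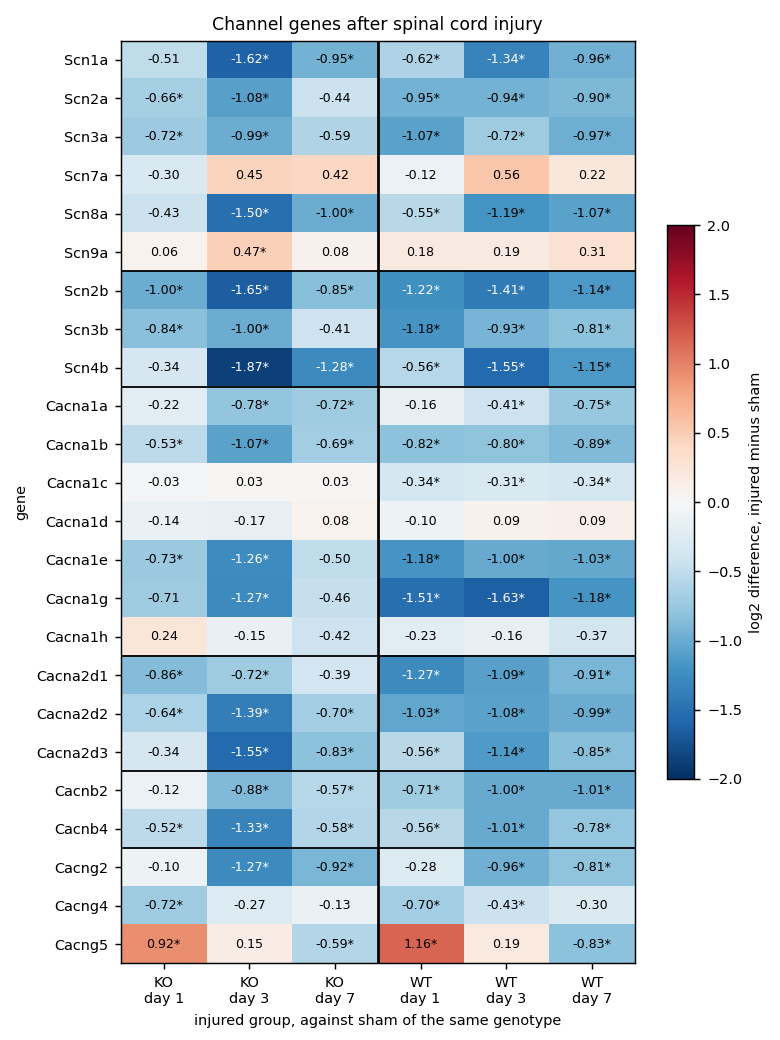
Log2 difference from sham of the same genotype for the 24 channel genes tested (rows, grouped by subunit family) in KO and WT cord at days 1, 3 and 7 (columns). Blue cells are lower and red cells higher than sham, and an asterisk marks adjusted p under 0.05. The deepest blue is Scn4b in KO day 3 cord at -1.87, and the reddest cells are Cacng5 at day 1, at 0.92 in KO and 1.16 in WT.

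Neuronal marker genes also fell, above the share of all genes in each comparison but KO day 1. Of 18 tested markers, 5, 17 and 15 were lower at days 1, 3 and 7 in KO cord (27.3%, 38.8% and 31% of all genes), and 11, 17 and 17 in WT cord (32.5%, 37.4% and 33.3% of all genes). At KO day 1 the 5 markers are thus near the share of all genes. Their median log2 difference was -0.30, -1.07 and -0.62 in KO cord and -0.39, -0.83 and -0.67 in WT cord. In bulk cord, fewer neurons and less RNA per neuron cannot be told apart. Markers of microglia and macrophages rose meanwhile, with 15 of 15 higher at day 7 in each genotype and medians of 4.52 in KO and 4.32 in WT cord. The skeletal muscle mean was 7.66 to 10.68 in KO sham cord and 3.66 to 9.08 in WT sham cord. The part of any of these shifts in the channel results was not tested.

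Among the sodium channel alpha subunits, 4 of the 6 tested genes fell and 2 did not. Scn1a, Scn2a, Scn3a and Scn8a were all lower in WT cord at days 1, 3 and 7. In KO cord only Scn2a and Scn3a passed at day 1, all 4 at day 3, and Scn1a and Scn8a at day 7. Arrays of Scn1a and Scn8a at KO day 1, and of Scn2a and Scn3a at KO day 7, were nonetheless all below KO sham. These calls passed without the 3 day 3 libraries, where 34% and 36.3% of all genes were lower at KO days 1 and 7. Scn1a encodes a channel prominent in fast-spiking inhibitory neurons and in motor neuron axons. Its signal was 11.58, 11.81, 10.34, 10.40 and 11.75 in KO day 3 cord, against 12.74, 12.87, 12.78 and 12.80 in KO sham cord. In WT cord it was 11.46, 10.95, 11.51 and 11.71 at day 3, against 12.82, 12.81, 12.63 and 12.72 in sham. Every day 3 array lay below every sham array in both genotypes, and KO replicates 3 and 4 were the lowest of all. The log2 difference at day 3 was -1.62 ± 0.22 in KO (3.07-fold lower, adjusted p = 1.99e-07) and -1.34 ± 0.23 in WT (2.52-fold lower, adjusted p = 1.17e-05). Without the 3 libraries set apart the KO value was -1.08.

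Scn8a encodes the main sodium channel of mature nodes of Ranvier. It read 10.74, 10.95, 9.74, 9.78 and 10.83 in KO day 3 cord, against 11.82, 12.04, 11.85 and 11.92 in KO sham cord. WT day 3 arrays read 10.65, 10.32, 10.66 and 10.92, against 11.88, 11.96, 11.81 and 11.65 in WT sham cord. The groups did not overlap, and the day 1 arrays lay between, at 11.14 to 11.66 in KO and 11.05 to 11.61 in WT cord. Scn8a was 2.83-fold lower at day 3 in KO (-1.50 ± 0.19, adjusted p = 5.73e-08) and 2.28-fold lower in WT (-1.19 ± 0.20, adjusted p = 7.23e-06). Without the 3 libraries the KO day 3 value was -1.07. At day 7 it was still just under 2-fold lower in KO (adjusted p = 0.000122) and 2.1-fold lower in WT (adjusted p = 4.04e-05).

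Scn2a, whose channel serves unmyelinated axons and developing initial segments, fell by 2.12-fold in KO (-1.08 ± 0.21) and 1.92-fold in WT (-0.94 ± 0.22) at day 3. The KO value was -0.62 without the 3 libraries. Scn3a encodes a channel that is prominent before birth and is known in rat sensory neurons for coming back after nerve injury. Here it was lower than sham, by 1.65-fold in KO and 2.1-fold in WT at day 1. The KO day 1 call was lost with no filter on low values and when KO day 1 replicate 1 or 3 or KO sham replicate 1, 3 or 4 was left out. At day 3 Scn3a was -0.99 in KO cord, or -0.50 without the 3 libraries. Its WT day 3 call was lost when WT day 3 replicate 1 or 3 or WT sham replicate 2 or 4 was left out.

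Scn9a and Scn7a took another course. Scn9a, the channel of small sensory and sympathetic neurons, read 5.74, 6.23, 7.13, 6.03 and 5.91 in KO day 3 cord, against 5.81, 6.01, 5.45 and 5.67 in KO sham cord. The groups overlapped, and the high value was KO replicate 3, the array with the most muscle signal. The difference of 0.47 ± 0.17 (adjusted p = 0.0165) was 0.22 without the 3 libraries, at adjusted p = 0.147. In WT cord Scn9a differed from sham by 0.18, 0.19 and 0.31 at days 1, 3 and 7 and did not pass. Scn7a, a sodium-sensing relative that does not open with voltage and is made by glia and Schwann cells, did not pass in any comparison with sham (-0.30 to 0.45 in KO, -0.12 to 0.56 in WT), and its KO day 3 value was -0.09 without the 3 libraries. Its other probe set above the limit passed in WT cord, at 1.23 ± 0.40 on day 3 (adjusted p = 0.0088) and 1.06 ± 0.40 on day 7 (adjusted p = 0.0263).

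The tested alpha subunit genes other than Scn8a, which is on chromosome 15, lie together on chromosome 2. By RefSeq's order of protein-coding genes, Scn3a and Scn2a are neighbours, with 3 genes between Scn2a and Scn1a. Scn1a, Scn9a and Scn7a follow each other with 0 genes between. Within that row of 3, Scn1a fell in 5 of 6 comparisons with sham, and Scn9a and Scn7a fell in 0 of 6.

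All 3 sodium channel beta subunit genes fell. Scn4b encodes the beta subunit that blocks the open pore and so allows resurgent current in fast-firing neurons, and it had the largest fall of any member. Its signal was 9.09, 9.20, 8.45, 7.64 and 9.54 in KO day 3 cord, against 10.58, 10.85, 10.53 and 10.65 in KO sham cord. WT day 3 cord gave 8.99, 8.81, 8.96 and 9.24, against 10.72, 10.57, 10.40 and 10.48 in WT sham cord. No day 3 array reached the sham range, and KO replicate 4 was the lowest. The fall was 3.65-fold in KO (-1.87 ± 0.22, adjusted p = 3.53e-08) and 2.92-fold in WT (-1.55 ± 0.24, adjusted p = 2.52e-06). Without the 3 day 3 libraries it was -1.38 in KO. At day 1 Scn4b differed by -0.34 ± 0.24 in KO (adjusted p = 0.238) and -0.56 ± 0.22 in WT (adjusted p = 0.0325), and the WT call was lost with any of 5 single libraries left out. At day 7 Scn4b was the one member at least 2-fold lower in KO cord, at 2.42-fold.

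Scn2b, whose product is bound to the alpha subunit by a disulfide bond and steers it to the axon membrane, was lower in all 6 comparisons. KO day 1 cord read 9.41, 9.80, 9.68 and 9.85 and KO day 3 cord 9.43, 9.70, 7.88, 8.50 and 9.63, against 10.70, 10.69, 10.70 and 10.64 in KO sham cord. WT day 1 cord read 9.33, 9.76, 9.87, 8.97 and 9.52 and WT day 3 cord 9.59, 8.72, 9.30 and 9.61, against 10.57, 10.71, 10.81 and 10.75 in WT sham cord. The 4 KO sham arrays lay close together, and every injured array was below sham in both genotypes. Scn2b was just under 2-fold lower at day 1 in KO (adjusted p = 0.0026) and 2.33-fold lower in WT (adjusted p = 0.000152). At day 3 the folds were 3.15 in KO (-1.65 ± 0.25, adjusted p = 1.19e-06) and 2.65 in WT (-1.41 ± 0.26, adjusted p = 3.44e-05). Leaving out the 3 libraries gave -1.09 in KO day 3 cord. Scn3b, the third member, was 1.79-fold lower at day 1 in KO and 2.27-fold lower in WT. At day 3 it was -1.0 in KO cord, or -0.63 without the 3 libraries.

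Scn2b and Scn4b are neighbours on chromosome 9 with 0 protein-coding genes between them, and both fell. The 250 bases before each start are shown as RefSeq gives them in GRCm38.p6, 5′ to 3′ on the plus strand (chr9:45117626-45117875 for Scn2b and chr9:45138374-45138623 for Scn4b). They were searched on both strands for an AP-1 site (TGANTCA), a CRE (TGACGTCA), a GC box (GGGCGG) and the 2 parts of the RE1 silencer element (TTCAGCACC and GGACAGC), and neither held one. Capitals would mark a match, so both are in lower case throughout.
Scn2b: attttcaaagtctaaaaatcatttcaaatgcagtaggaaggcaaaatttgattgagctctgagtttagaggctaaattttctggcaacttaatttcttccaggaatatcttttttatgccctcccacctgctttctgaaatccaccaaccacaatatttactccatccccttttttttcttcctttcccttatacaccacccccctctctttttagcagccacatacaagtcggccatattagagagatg
Scn4b: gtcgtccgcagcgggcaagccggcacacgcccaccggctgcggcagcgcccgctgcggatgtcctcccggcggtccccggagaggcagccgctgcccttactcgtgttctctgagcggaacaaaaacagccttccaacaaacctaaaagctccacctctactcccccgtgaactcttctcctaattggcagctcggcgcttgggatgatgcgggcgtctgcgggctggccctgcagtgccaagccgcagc

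Of the Cacna1 pores, 5 of 7 tested genes fell at least once, a count for which the share of all genes is not given here. Cacna1b forms the N-type channel of presynaptic terminals and was lower in all 6 comparisons. It read 8.69, 8.77, 7.47, 7.66 and 8.43 in KO day 3 cord, against 9.30, 9.34, 9.24 and 9.22 in KO sham cord, and 8.48, 8.85, 8.01 and 8.60 in WT day 3 cord, against 9.28, 9.31, 9.13 and 9.42 in WT sham cord. Injured and sham arrays did not overlap. The fall was 2.1-fold in KO (-1.07 ± 0.20, adjusted p = 3.35e-05) and 1.74-fold in WT (-0.80 ± 0.21, adjusted p = 0.00178). The KO day 3 value was -0.65 without the 3 libraries. Its KO day 1 call (-0.53, adjusted p = 0.0403) was lost when any 1 of 7 KO sham or KO day 1 libraries was left out. Cacna1a, the P/Q-type pore of fast synapses, was lower at days 3 and 7 only, by 1.65-fold in KO and 1.69-fold in WT at day 7.

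Cacna1e, the R-type pore, read 9.04, 9.01, 6.92, 8.01 and 8.67 in KO day 3 cord, against 9.83, 9.62, 9.38 and 9.55 in KO sham cord. WT day 1 cord read 8.45, 8.82, 8.86, 7.61 and 9.0 and WT day 3 cord 8.83, 8.74, 8.36 and 8.95, against 9.63, 9.72, 9.90 and 9.66 in WT sham cord. All injured arrays were below sham, with KO day 3 replicate 3 and WT day 1 replicate 4 the lowest. The falls were 2.4-fold at day 3 in KO (-1.26 ± 0.29, adjusted p = 0.000295), and 2.26-fold at day 1 and 2.01-fold at day 3 in WT. The KO day 3 value was -0.69 without the 3 libraries, still passing, and the call was lost with caudal Hox signal as a covariate (-0.46). At KO day 1 the call (-0.73) was lost when any 1 of 6 KO sham or KO day 1 libraries was left out. In KO cord at day 7 the difference of -0.50 ± 0.30 did not pass (adjusted p = 0.161).

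Cacna1g forms a low-voltage T-type channel that shapes burst firing. Its signal was 5.27, 4.97, 3.5, 4.21 and 4.92 in KO day 3 cord, against 6.14, 5.67, 5.81 and 5.74 in KO sham cord. In WT cord it was 4.63, 4.91, 5.26, 3.41 and 5.13 at day 1 and 4.95, 4.30, 4.39 and 4.58 at day 3, against 6.24, 6.10, 6.12 and 6.26 in sham. The groups did not overlap, and 1 array in each of KO day 3 and WT day 1 was under log2 4, where signal is not well above background. With such values set to 4 the fall was at least 2.25-fold in KO day 3 cord (adjusted p = 0.000306 on the values as deposited) and at least 2.63-fold in WT day 1 cord (adjusted p = 7.06e-05 on the values as deposited). Without the 3 libraries the KO day 3 difference was -0.79, against -1.27 with them. In WT day 3 cord it was 3.09-fold (-1.63 ± 0.30, adjusted p = 3.63e-05). The other T-type pore tested, Cacna1h, did not pass, at -0.42 in KO and -0.37 in WT cord at day 7.

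The L-type pores showed small differences on the probe sets used. Cacna1c differed from sham by -0.03, 0.03 and 0.03 at days 1, 3 and 7 in KO cord, which did not pass, and by -0.34, -0.31 and -0.34 in WT cord, which passed although the arrays overlapped. Its KO minus WT difference in response was 0.32 ± 0.13, 0.34 ± 0.13 and 0.37 ± 0.13 and did not pass (adjusted p = 0.624, 0.679 and 1). A second Cacna1c probe set was lower in KO cord as well, by -1.0 ± 0.21 at day 3 (adjusted p = 0.000148) and -0.60 ± 0.22 at day 7 (adjusted p = 0.0272). Cacna1d differed from sham by -0.17 to 0.08 in KO and -0.10 to 0.09 in WT cord.

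All 3 tested Cacna2d genes fell. The products of Cacna2d1 and Cacna2d2 bind gabapentin, a drug given for neuropathic pain after cord injury. Cacna2d2 read 9.37, 9.68, 8.13, 8.22 and 9.27 in KO day 3 cord, against 10.29, 10.53, 10.21 and 10.26 in KO sham cord. WT day 3 cord read 9.45, 9.03, 8.93 and 9.45, against 10.33, 10.40, 10.22 and 10.21 in WT sham cord. No injured array overlapped sham, and the lowest were KO replicates 3 and 4. The fall was 2.62-fold in KO (-1.39 ± 0.22, adjusted p = 2.93e-06; -0.89 without the 3 libraries) and 2.11-fold in WT (-1.08 ± 0.23, adjusted p = 0.000214).

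Cacna2d3 read 8.87, 9.12, 7.97, 7.98 and 9.17 in KO day 3 cord, against 10.08, 10.35, 10.17 and 10.09 in KO sham cord. Its WT day 3 arrays read 8.98, 8.81, 8.96 and 9.22, against 10.18, 10.14, 10 and 10.20 in WT sham cord. Again the groups were separate, while the KO day 1 arrays (9.53 to 10.11) overlapped KO sham. Cacna2d3 was 2.93-fold lower at day 3 in KO (-1.55 ± 0.19, adjusted p = 5.24e-08) and 2.2-fold lower in WT (-1.14 ± 0.20, adjusted p = 1.86e-05). Cacna2d1, which rises in sensory neurons after nerve injury in rat, fell here. It was 1.82-fold lower at day 1 in KO and 2.42-fold lower in WT, and in KO cord at day 7 its difference of -0.39 did not pass (adjusted p = 0.177).

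Both tested Cacnb genes fell. Cacnb4 encodes the intracellular subunit whose loss makes the lethargic mouse ataxic. Its signal was 11.04, 11.15, 10.05, 10.18 and 11.19 in KO day 3 cord, against 12.11, 11.98, 12.15 and 11.96 in KO sham cord. WT cord gave 10.96, 10.85, 10.95 and 11.11 at day 3, against 12.02, 12.15, 11.89 and 11.85 in sham. The day 3 arrays were all below sham. The fall was 2.51-fold in KO (-1.33 ± 0.17, adjusted p = 1.16e-07) and 2.01-fold in WT (-1.01 ± 0.18, adjusted p = 2.23e-05). Cacnb2 was 1.83-fold lower at day 3 in KO and 2-fold lower in WT. At day 1 Cacnb2 did not pass in KO cord (-0.12) and passed in WT cord (-0.71), while the responses differed by 0.59 ± 0.21 between genotypes, with an adjusted p of 0.493.

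The Cacng genes split. Cacng2, or stargazin, carries AMPA receptors to the synapse. Its signal was 8.59, 8.68, 7.62, 8.04 and 8.89 in KO day 3 cord, against 9.50, 9.83, 9.63 and 9.59 in KO sham cord, and 8.59, 8.64, 8.46 and 8.63 in WT day 3 cord, against 9.55, 9.63, 9.47 and 9.49 in WT sham cord. Day 3 and sham arrays were apart, whereas day 1 arrays (9.31 to 9.75 in KO, 8.94 to 9.49 in WT) overlapped sham. At day 1 its other 2 probe sets above the limit did not pass in KO cord and did in WT cord (-0.59 and -0.50, adjusted p = 0.00862 and 0.0357). The day 3 fall was 2.42-fold in KO (-1.27 ± 0.16, adjusted p = 1.06e-07) and 1.94-fold in WT (-0.96 ± 0.17, adjusted p = 2.37e-05). Cacng4, a second AMPA receptor escort, fell at day 1, by 1.64-fold in KO (adjusted p = 0.00103) and 1.62-fold in WT (adjusted p = 0.000582). At day 3 it passed in WT alone (-0.43, adjusted p = 0.0257), a call lost without WT day 3 replicate 2 or WT sham replicate 1 or 4.

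Cacng5, an atypical AMPA receptor escort, rose first and fell later. KO sham arrays read 6.62, 6.89, 6.71 and 6.64, KO day 1 arrays 7.73, 8.05, 7.52 and 7.26, KO day 3 arrays 6.37, 7.03, 6.86, 7.04 and 7.04, and KO day 7 arrays 6.11, 6.2, 6.13 and 6.08. WT sham arrays read 6.46, 6.44, 6.68 and 6.57, WT day 1 arrays 7.51, 7.81, 7.75, 8.05 and 7.37, WT day 3 arrays 6.90, 6.34, 6.59 and 7.10, and WT day 7 arrays 5.89, 5.71, 5.55 and 5.69. Every day 1 array was above sham and every day 7 array below it, in both genotypes, while day 3 overlapped sham. At day 1 it was 1.9-fold higher in KO (0.92 ± 0.16, adjusted p = 3.52e-05) and 2.24-fold higher in WT (1.16 ± 0.15, adjusted p = 4.02e-07). At day 7 it was 1.5-fold lower in KO (-0.59 ± 0.16, adjusted p = 0.00346) and 1.77-fold lower in WT (-0.83 ± 0.16, adjusted p = 9.82e-05). Cacng1, Cacng4 and Cacng5 lie next to each other on chromosome 11, so at day 1 the neighbours Cacng4 and Cacng5 moved in opposite directions.

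Because Cacng5 alone had a rise in both genotypes, its promoter was set beside those of the other members. RefSeq held 37 start windows for 27 of the 35 genes. The AP-1 site TGANTCA, which reads the same on both strands, was in 1 of the 37, a window of Cacng5, and in 6.75% of all 32851 windows. The CRE and the left part of RE1 were in 0 of 37 (1.55% and 0.30% of all), the right part of RE1 in 1, of Cacnb1 (5.28% of all), and the GC box in 14 (32.74% of all). A match is a run of letters and not a shown binding site. The window is chr11:107915056-107915305 in GRCm38.p6, read 5′ to 3′ on the minus strand, with the AP-1 match and 2 GC boxes in capitals. A second annotated start of Cacng5 had no match.
Cacng5: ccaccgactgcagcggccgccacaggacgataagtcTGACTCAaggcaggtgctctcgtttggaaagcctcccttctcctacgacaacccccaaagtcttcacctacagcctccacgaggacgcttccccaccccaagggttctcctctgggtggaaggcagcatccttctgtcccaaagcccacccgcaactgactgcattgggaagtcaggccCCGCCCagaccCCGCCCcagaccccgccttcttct

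**Figure D2:**
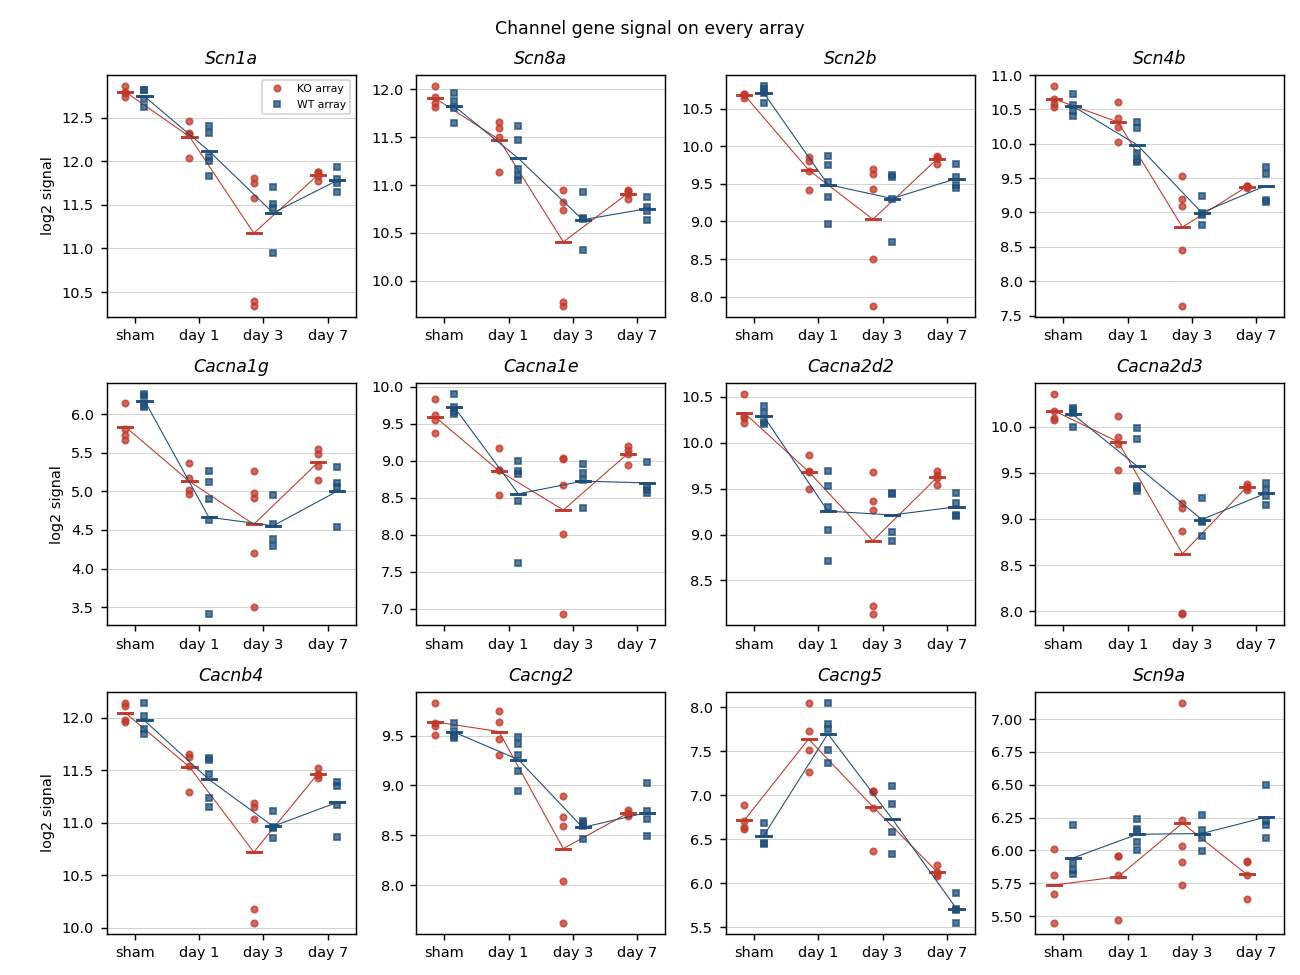
Deposited log2 signal of 12 channel genes on each of the 34 arrays, with KO arrays (red circles) left of WT arrays (blue squares) at each time and a bar at each group mean, joined by thin lines. Cacng5 peaks at day 1 and is below sham at day 7 in both genotypes, and 2 KO day 3 arrays sit low for Scn1a, Scn8a, Cacna2d3 and Cacnb4.

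The genes did not all fall at the same time. As the mean of both genotypes, 11 of 24 were lower at day 3 than at day 1 and 2 were higher, against 34.3% and 26.1% of all genes. The further falls were led by Scn4b (-1.26 ± 0.16, adjusted p = 1.47e-07), Cacng2 (-0.93 ± 0.12), Scn1a (-0.91 ± 0.15), Cacna2d3 (-0.89 ± 0.14) and Scn8a (-0.86 ± 0.13, adjusted p = 3.28e-06). Cacnb4, Cacnb2 and Cacna1a also fell further (-0.63, -0.52 and -0.41). All of these still passed without the 3 day 3 libraries, at smaller sizes. Scn4b was then -0.98, Cacng2 -0.76, Cacna2d3 -0.65, Scn8a -0.59, Scn1a -0.56, Cacnb2 -0.45, Cacnb4 -0.41 and Cacna1a -0.34. By contrast Cacna2d1 (0.16 ± 0.16), Scn3b (0.04 ± 0.15), Scn3a (0.04 ± 0.19), Scn2a (-0.21 ± 0.15), Cacna1e (-0.18 ± 0.20) and Cacna1b (-0.26 ± 0.14) did not pass. These 6 were already lower than sham at day 1 in both genotypes. So were Cacnb4, which fell further, and Cacna2d2 and Scn2b, whose further falls did not pass without the 3 day 3 libraries. Cacng4 rose (0.36 ± 0.11, adjusted p = 0.00846). With caudal Hox signal as a covariate 9 genes were lower and 4 higher at day 3 than at day 1 (45.4% of all genes in either direction). The 4 were Cacng4, Scn3a, Scn3b and Cacna1d. Of the 18 neuron markers, 15 were lower at day 3 than at day 1 and 0 were higher.

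The calls for Scn2b (-0.42), Cacna2d2 (-0.40) and Scn7a (0.72, higher) depended on the day 3 libraries set apart. Without them these values were -0.04, -0.11 and 0.43 and did not pass (adjusted p = 0.71, 0.387 and 0.103). For Scn2b or Cacna2d2 the call was also lost when any 1 of several day 1 or day 3 libraries was left out.

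**Figure D3:**
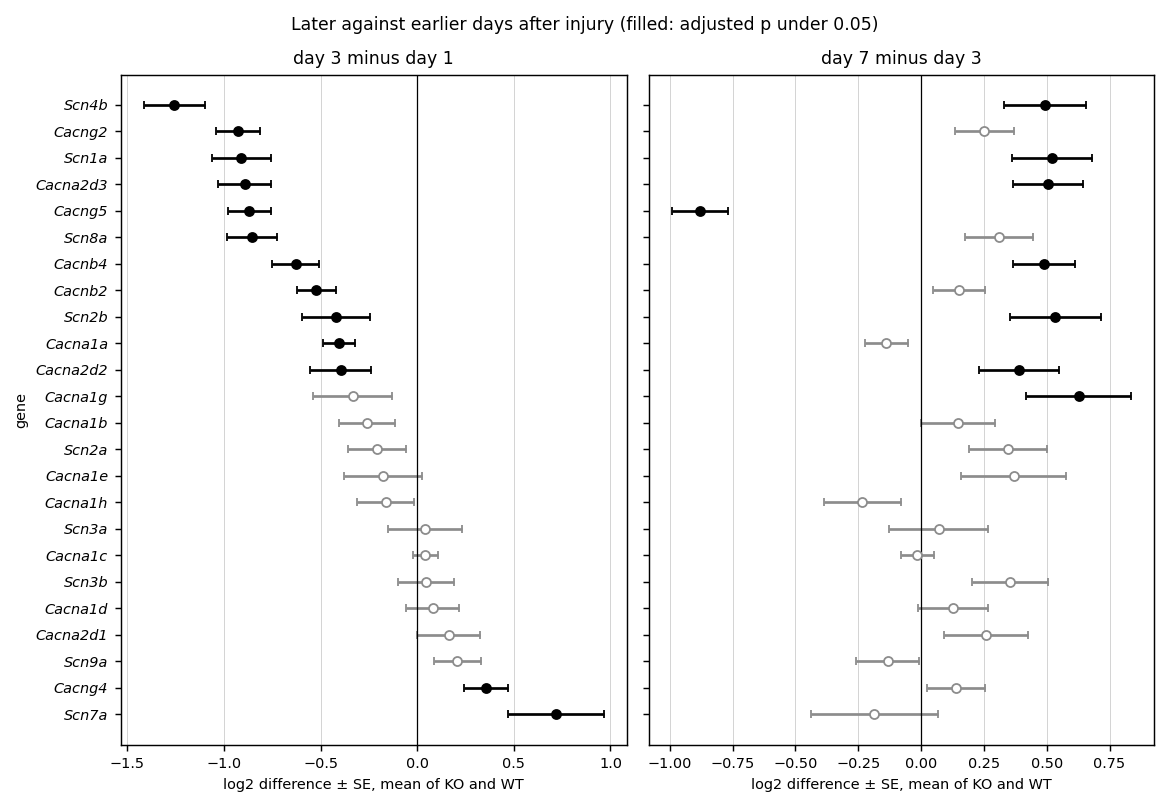
Log2 difference ± SE of each channel gene between days, as the mean of KO and WT cord, for day 3 minus day 1 (left) and day 7 minus day 3 (right). Filled points passed the threshold. Scn4b, Cacng2, Scn1a, Cacna2d3, Cacng5 and Scn8a stand furthest left in the first panel, and Cacng5 is the one filled point left of 0 in the second.

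From day 3 to day 7, 7 of 24 genes were higher and 1, Cacng5, was lower (-0.88 ± 0.11, adjusted p = 3.89e-07), against 24.8% and 21.3% of all genes. The 7 higher genes (29.2%) are thus near the share of all genes. The 7 were Cacna1g (0.63), Scn2b (0.53), Scn1a (0.52), Cacna2d3 (0.50), Scn4b (0.49), Cacnb4 (0.49) and Cacna2d2 (0.39). Only Cacna2d3 (0.26, adjusted p = 0.0416) and Cacnb4 (0.27, adjusted p = 0.0125) still passed without the 3 day 3 libraries. The Cacna2d2 call was also lost in 26 of the 34 fits that left out 1 array. Without the 3 libraries Cacna1a was lower at day 7 than at day 3 (-0.21, adjusted p = 0.00808).

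Falls of at least 2-fold were seen in 0, 12 and 1 members at days 1, 3 and 7 in KO cord, where 3.08%, 9.84% and 2.06% of all genes fell so far. In WT cord they were seen in 7, 11 and 6 members, where 4.06%, 7.65% and 4.03% of all genes did. Without the 3 libraries the day 3 counts were 5 in KO and 10 in WT cord. The share of all genes that fell so far without them is not given here, so these counts stand without a background.

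Whether the 2 genotypes differ is the comparison the study's design adds to the injury course. KO against WT, 0 of 24 channel genes passed in sham cord and at days 1, 3 and 7 with limma, where 0.0667%, 0.859%, 0.0334% and 0.0334% of all genes did. At an unadjusted p under 0.05 there were 1, 2, 0 and 2 genes. A KO minus WT difference in the response to injury passed for 0 of 24 at days 1, 3 and 7 (0.142%, 0% and 0.00834% of all genes), with 2, 2 and 2 at an unadjusted p under 0.05. The lowest adjusted p was 0.435 for KO against WT, of Cacna1a at day 3, and 0.493 for the difference in response, of Cacnb2 at day 1. A p that misses the threshold does not show that the genotypes act alike.

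The KO minus WT log2 difference ran from -0.34 (Cacna1g) to 0.47 (Scn7a) in sham cord, with a median of 0.00. At day 1 it ran from -0.32 (Scn9a) to 0.46 (Cacna1g, 1 WT array under log2 4), with a median of 0.20. At day 3 it ran from -0.44 (Scn3a) to 0.36 (Scn7a), with a median of -0.22, and at day 7 from -0.44 (Scn9a) to 0.66 (Scn7a), with a median of 0.18. The difference in response was largest for Cacna1g, at 0.80 ± 0.42 on day 1 and 0.71 ± 0.43 on day 7, and did not pass (adjusted p = 0.808 and 1). On day 3 it ran from -0.41 (Cacna2d3) to 0.38 (Cacna2d1). At day 7, 8 of 24 genes were higher in every KO array than in every WT array, against 5.24% of all genes tested. They were Cacna1a, Cacna2d1, Cacna2d2, Cacnb4, Cacng5, Scn2a, Scn2b and Scn3b, with differences from 0.17 to 0.42 and adjusted p of 0.938 or more. Cacng5 read 6.11, 6.2, 6.13 and 6.08 in KO day 7 cord, against 5.89, 5.71, 5.55 and 5.69 in WT day 7 cord. Scn9a was lower in every KO array than in every WT array at day 1 (-0.32 ± 0.17, adjusted p = 0.576; 2.83% of all genes) and at day 7 (-0.44 ± 0.18, adjusted p = 0.947; 3.49% of all genes).

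**Figure D4:**
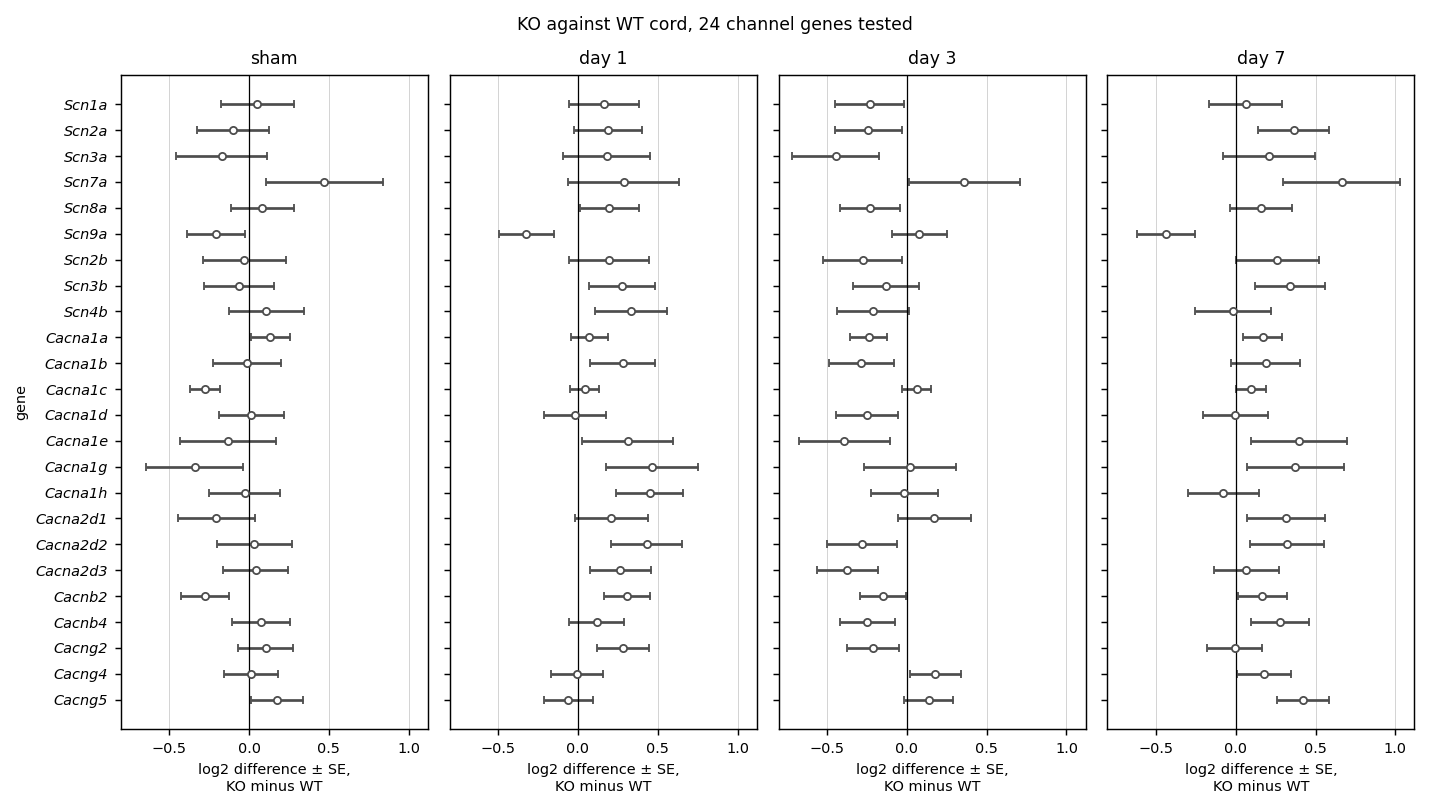
Log2 difference ± SE between KO and WT cord, KO minus WT, for the 24 channel genes tested in sham cord and at days 1, 3 and 7 after injury. No point passed the threshold, and most points lie within 0.5 of 0.

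Caudal Hox genes, which mark the level of the cord, differed between the genotypes in sham and day 7 cord. Rostral Hox genes overlapped in both. The mean of 9 rostral Hox genes was 6.92 to 7.06 in KO and 6.93 to 7.19 in WT sham cord. At day 7 the rostral mean was 6.66 to 6.73 in KO and 6.40 to 6.67 in WT cord. The mean of 7 caudal Hox genes was 8.58 to 8.83 in KO sham cord, against 6.70 to 7.39 in WT sham cord, with no overlap. It was 7.80 to 8.76 in KO day 1 cord, against 7.66 to 8.64 in WT day 1 cord, where the groups overlapped. At day 3 it was 6.54 to 8.17 in KO cord, against 6.91 to 8.19 in WT cord. At day 7, where 8 channel genes were higher in every KO array, it was 8.16 to 8.44 in KO cord, against 7.59 to 8.05 in WT cord, again with no overlap. With that mean as a covariate 16 channel genes, among them Scn1a, Scn2b, Scn4b, Cacna1b and Cacna2d2, passed as lower in KO than in WT sham cord, as did 11.8% of all genes in either direction. The genotype difference in the injury response then passed as higher for 14 channel genes at day 1, 0 at day 3 and 7 at day 7 (13%, 0% and 4.13% of all genes in either direction). In the sham and day 7 groups genotype and this Hox difference cannot be told apart.

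The injury comparisons moved with the Hox covariate too. The caudal Hox mean itself differed between injured and sham cord, in opposite directions in KO and WT. It was below KO sham (8.58 to 8.83) in every KO day 3 and day 7 array (6.54 to 8.17 and 8.16 to 8.44). It was above WT sham (6.70 to 7.39) in every WT day 1 and day 7 array (7.66 to 8.64 and 7.59 to 8.05). In those groups injury and this Hox difference cannot be told apart. With the covariate the lower genes in KO cord were 9, 12 and 12 at days 1, 3 and 7, with medians of -0.36, -0.48 and -0.35. In WT cord they were 20, 19 and 20, with medians of -1.10, -1.20 and -1.20. Over all genes tested, 6124, 8359 and 6540 passed in either direction in KO cord without the covariate and 5877, 6225 and 5864 with it. In WT cord these were 7140, 8018 and 7088 without it and 7691, 8382 and 7565 with it. The shares passing in either direction with it were 49%, 51.9% and 48.9% in KO cord and 64.1%, 69.9% and 63.1% in WT cord. The share of all genes lower with it is not given here. The counts of lower channel genes therefore have no matching background. The KO day 3 falls that no longer passed were those of Cacna1e (-0.46), Cacna1g (-0.50), Cacna2d1 (-0.50), Scn3a (-0.21) and Scn3b (-0.37).

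Partner genes give the setting in which the channels fell. All 4 FGF homologous factors, which bind the tail of the sodium channel, were lower in all 6 comparisons with sham. Single comparisons had 27.3% to 38.8% of all genes lower, and the share lower in all 6 is not given here. Fgf12 ranged from 9.23 to 10.42 in KO day 3 cord, against 11.41 to 11.55 in KO sham cord (2.96-fold lower, adjusted p = 1.97e-08). Of 11 genes that anchor channels at the initial segment and node, 3, 9 and 7 were lower in KO cord at days 1, 3 and 7 (27.3%, 38.8% and 31% of all genes) and 7, 9 and 7 in WT cord (32.5%, 37.4% and 33.3% of all genes). The 3 of 11 at KO day 1 are at the share of all genes. Ank3, the master scaffold of the initial segment, was 1.63-fold lower in KO day 3 cord (12.72 to 13.21, against 13.59 to 13.73 in KO sham). Nrcam, a cell adhesion molecule of the node that glia also make, rose. It was 12.21 to 13.02 in WT day 3 cord, against 10.57 to 10.72 in WT sham cord (3.47-fold higher, adjusted p = 8.86e-13), and 1.65 ± 0.12 in log2 difference in KO.

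On the calcium side, 9 of 10 presynaptic partners, 2 of which are also neuron markers in the list above, were lower at day 3 in each genotype and 0 were higher, where 38.8% of all genes were lower in KO and 37.4% in WT cord. Syt2, the fast calcium sensor of release in spinal cord, was 3.28-fold lower in KO day 3 cord (7.17 to 9.01, against 9.70 to 10.02 in KO sham). Among 9 calcium sensors, kinases and phosphatases, 8 were lower at day 3 in each genotype, such as Ncs1 (2.12-fold in KO, adjusted p = 2.78e-07). Rrad, a small GTPase that holds back high-voltage calcium channels through the Cacnb subunit, went the other way. It read 5.14 to 7.90 in KO day 3 cord, against 2.22 to 2.98 in KO sham cord, which is at least 5.82-fold higher with values under log2 4 set to 4. Its adjusted p of 7.1e-11 is for the values as deposited. Rrad is also made in muscle, and the part of the muscle signal in KO day 3 cord was not tested.

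Pores outside the name pattern moved both ways. Nalcn, the sodium leak channel that sets neuronal resting potential, was 2.62-fold lower in KO day 3 cord (8.66 to 10.03, against 10.74 to 10.89 in KO sham), and its partner Unc80 2.59-fold lower. Hvcn1, the voltage-gated proton channel of phagocytes, was 7.49 to 7.86 in KO day 7 cord, against 4.18 to 5.14 in KO sham cord (7.68-fold higher, adjusted p = 1.17e-11). In WT cord its day 7 log2 difference was 2.82 ± 0.23.

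The 11 members below the limit for testing were Cacna1f, Cacna1s, Cacna2d4, Cacnb1, Cacng1, Cacng3, Cacng6, Cacng7, Cacng8, Scn10a and Scn11a. Signal that low does not show that a gene is unexpressed. Of them, 6 passed log2 4 on at least 1 array. Cacna1s, the pore of the skeletal muscle L-type channel, read 3.08, 2.17, 6.77, 2.17 and 2.17 in KO day 3 cord, against 2.17 to 2.28 in KO sham cord. Cacng1, its muscle gamma subunit, read 3.84, 2.17, 6.76, 2.17 and 2.17 in KO day 3 cord, and Cacnb1, its muscle beta subunit, 4.39, 3.34, 5.60, 3.34 and 3.34. In each case replicate 3 was the high array and replicate 1 came next, the order of their skeletal muscle means of 13.35 and 10.99. Cacng6 (5.50) and Scn11a (5.22), a channel of sensory neurons, were also above 4 on replicate 3 alone. Cacng8, another AMPA receptor escort, reached 4.10 on 1 KO day 1 array. Its day 1 arrays read 3.15, 3.77, 3.80 and 4.10 in KO cord, against 2.98 to 3.04 in KO sham cord, and 3.59, 3.59, 3.25, 3.80 and 3.94 in WT cord, against 3.00 to 3.12 in WT sham cord. All but 1 of these values lie under log2 4, where differences were not tested.

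**Figure D5:**
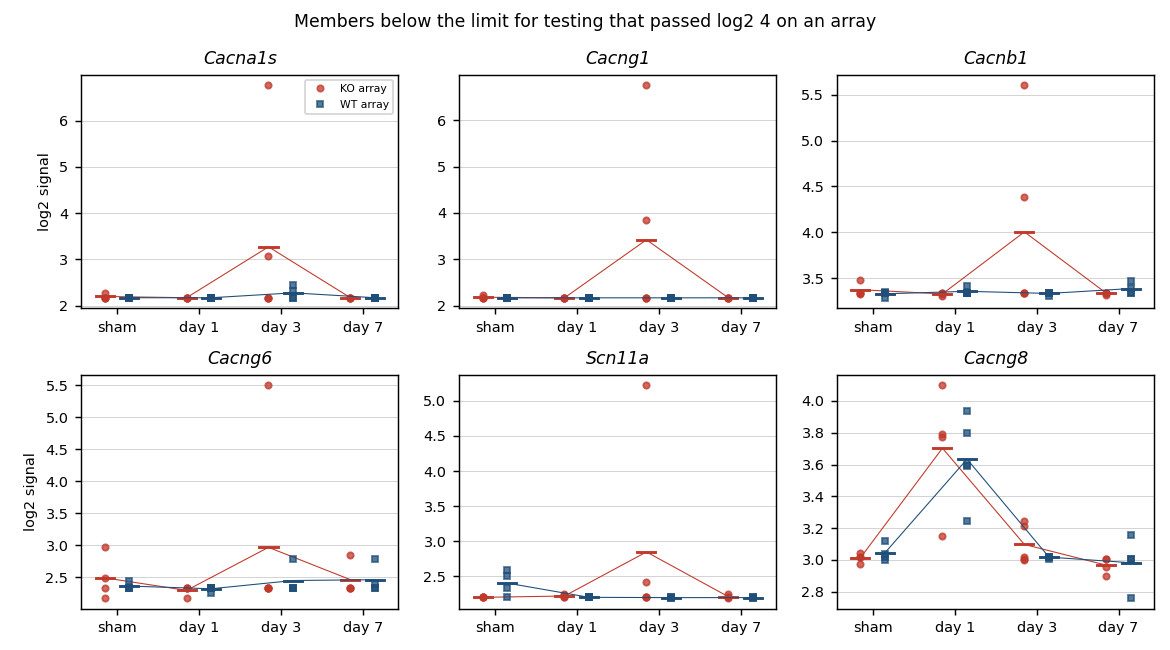
Deposited log2 signal on every array for the 6 members that were not tested but passed log2 4 on at least 1 array, with KO arrays (red circles) left of WT arrays (blue squares) at each time and bars, joined by thin lines, at group means. The highest point of Cacna1s (6.77), Cacng1 (6.76), Cacnb1 (5.60), Cacng6 (5.50) and Scn11a (5.22) is the same array, KO day 3 replicate 3.

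Other probe sets of the same genes bore on how firm these readings are. Of the 97 calls of a member against sham, 53 had a second probe set above the limit, and for 50 of these another probe set passed in the same direction. In 0 did one pass in the opposite direction. The 3 without a second passing probe set were Cacng4 in WT day 3, Cacna1b in KO day 1 and Scn9a in KO day 3 cord.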

How the data were processed

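Spinal cord RNA was hybridised to 34 Affymetrix arrays, 1 per sample. The authors deposited log2 signal per probe set, summarised with GCRMA per the submitters' processing notes, with no version stated. They were used as deposited (2.17 to 15.9). GCRMA corrects background by probe GC content and normalises arrays by quantiles, so each difference is relative to the other genes of an array. Array medians ran from 4.14 to 4.39.

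Probe sets with 1 annotated symbol were kept (34945 of 45101), with the probe set of the highest mean per gene. A gene entered the tests if 4 or more arrays exceeded log2 4. Models with 1 mean for each of 8 groups were fitted with limma 3.58.1 in R 4.3.3 (lmFit, eBayes), with Benjamini-Hochberg adjustment over the 11993 genes of each of 15 comparisons. Tested on simulated data for WT day 3 against WT sham, with 11993 genes, the fit recovered 58% of log2 changes of 0.5 and 90% of 1. There 11793 genes were left unchanged, whereas 8018 genes passed in the data. The adjusted threshold shifts with the number of changed genes, so these rates do not carry over to the injury comparisons. Members given in full are the 8 with the largest passing falls, the 8 with the largest passing rises (2 passed) and the highest-mean member of each family. Partner genes come from at most 3 per list, those of lowest p. Cacna1b was added to these, and the promoters shown and the motifs were picked after values were seen. The members and lists were chosen with earlier results of these data known. Replicate numbers did not pair the samples: deviations of the 113 pairs with the same number correlated at a median of 0.004. Alternatives are in the closing section. The array files name no genome build, and promoters are RefSeq's for GRCm38.p6.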

Additional observations from a re-analysis of the deposited data

Results flagged for a closer look

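Of 192 combinations of a channel gene and a group, 5 held 1 array far from the others, where chance alone gives about 1 in 20. In KO cord Cacna1c read 6.12 in day 3 replicate 2, against 5.57 to 5.63 in the other arrays of that group. Cacng5 read 6.37 in KO day 3 replicate 1, against 6.86 to 7.04. Scn3b read 7.66 in KO sham replicate 3, against 7.86 to 7.90. In WT cord Scn7a read 3.98 in day 1 replicate 4, against 5.32 to 5.63. Cacna1h read 5.18 in WT sham replicate 1, against 5.98 to 6.13. The 5 arrays are 5 different libraries.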

How the results depend on the processing

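Over 12 alternatives and 34 fits that each left out 1 array, 118 calls of a channel gene were followed. Of these, 1 reversed, namely Cacna2d2 at day 3 against day 1, which was 0.0097 once caudal Hox signal entered the fit. The 2 alternatives of a stricter limit of log2 5 and values under 4 set to 4 lost 0 of the 118 calls. The other losses were 7 with no filter, 1 with the mean of a gene's probe sets, 8 with only the groups compared in the fit, 4 without the library labelled KO sham replicate 2, 1 with arrays centred on their median, 7 with array weights, 14 with the Hox covariate, 6 with a skeletal muscle covariate and 10 without the 3 day 3 libraries, an alternative chosen after seeing the data. With the replicate number as a block 0 calls were lost, and the count of lower genes in KO day 1 cord was 11. Counts moved by over 1.5 times as follows. Lower genes in KO day 1 cord (10) were 16 with only the groups compared and 16 without the 3 libraries (34% of all genes, against 27.3% with them). In KO day 7 cord (12) they were 19 with array weights. Shares of all genes are not given for the fits with only the groups compared, array weights, a replicate block or the mean of probe sets. They are also not given with the muscle covariate or with 1 array left out. Counts from these fits stand without a background. Higher genes in KO day 3 cord (1) were 0 with only the groups compared, array weights, the Hox covariate or without the 3 libraries, and in KO day 7 cord (0) 1 with the muscle covariate. Higher genes in WT day 1 cord (1) were 2 with the Hox covariate. In WT day 3 cord (0) they were 1 with the mean of probe sets, only the groups compared, array weights or the Hox covariate, and in WT day 7 cord (0) 1 with those last 3 or without the 3 libraries. KO against WT (0) gave 16 in sham cord with the Hox covariate and 1 at day 7 with array weights, and the genotype difference (0) gave 14 at day 1 and 7 at day 7 with the Hox covariate. Day 7 against day 3 (8) gave 4 with only the groups compared, the Hox covariate or without the 3 libraries. The causes were not tested. Leaving out 1 array gave 5 to 14 lower genes in KO day 1 cord, 5 without KO day 1 replicate 1. Other ranges were 17 to 18 and 12 to 13 lower in KO at days 3 and 7, 16 to 17, 17 to 19 and 19 to 20 lower in WT at days 1, 3 and 7, 0 to 1 higher in KO day 3 (0 without KO day 3 replicate 3 or KO sham replicate 3) and in WT day 7 cord (1 without KO day 3 replicate 3), 11 to 14 for day 3 against day 1 and 6 to 12 for day 7 against day 3. With 4 or 5 arrays a group small differences may be missed, and signal under log2 4 limits the 11 members not tested. Log2 changes of 0.5 were recovered in 58% of simulated cases, with 11793 of 11993 genes unchanged. That rate does not carry over to the injury comparisons, where far more genes passed.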
